A study of Mus musculus with 12 samples.

Results

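Sprr2g, Krt4 and Lypd3 are 3 genes of squamous epithelium, and they were described here in mouse kidney after ischemia and reperfusion (I/R). They were taken by gene symbol from a table of 16383 genes, and each symbol named 1 gene. All 3 had been picked because they were high in injured kidney in these same libraries, so their I/R changes are a description without a test. All 3 passed the filter on low counts that left 5048 genes for testing, and they passed it through the I/R libraries, where their counts are high.

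RNA was sequenced from 12 kidney libraries, with 3 in each of 4 groups. In the WT I/R and Lrrk2-/- I/R groups, the left kidney was made ischemic for 30 min at 37 °C and the other kidney was removed. The WT sham and Lrrk2-/- sham groups had that surgery, nephrectomy included, without the ischemia. The groups labelled Lrrk2-/- are written KO here. The labels give no reperfusion time, strain, age, sex or design of the knockout allele. They also leave unsaid whether the libraries of a group are different animals, and a p-value here therefore covers the variation among libraries, which may be technical.

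A squamous epithelium, such as that of skin, oesophagus or forestomach, is built of stacked cells held together by keratin filaments and desmosomes. Its outer cells assemble a cornified envelope under their membrane, in which transglutaminases cross-link small proline-rich (SPRR) proteins. Sprr2g belongs to the SPRR2 family of that envelope, in the epidermal differentiation complex. Krt4 encodes a type II keratin of the suprabasal layers of non-cornified squamous lining such as that of the oesophagus. Lypd3, also called C4.4A, encodes a GPI-anchored surface protein of the Ly6 and urokinase receptor family found in the suprabasal layers of skin and oesophagus. Normal kidney tubule is a single-layered epithelium.

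The table gives these 3 genes the coordinates they have in GENCODE M21 on GRCm38, and Sprr2g lies on the plus strand at chr3:92373915-92375229. Its type in that annotation is polymorphic pseudogene, a class for genes that encode a protein in some individuals or strains and are interrupted in the reference genome. The coding sequence of transcript Sprr2g-201 is 231 nt long and spans chr3:92374640-92374871. It is shown because its repeats make the family visible: capitals mark the CCN codons, which encode proline, and these make up 29 of the 76 codons before the stop (38.2%). A further 14 codons (18.4%) are TGT or TGC, which encode cysteine.
Sprr2g-201 coding sequence: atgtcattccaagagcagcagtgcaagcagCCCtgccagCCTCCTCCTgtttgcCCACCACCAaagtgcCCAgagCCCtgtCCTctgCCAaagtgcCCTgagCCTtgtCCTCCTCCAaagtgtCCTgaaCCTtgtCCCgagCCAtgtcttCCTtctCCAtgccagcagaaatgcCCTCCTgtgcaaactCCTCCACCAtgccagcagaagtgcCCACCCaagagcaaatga

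To keep that frame, the annotated coding transcript leaves out 1 base of the reference genome, at position 92374691. Transcript Sprr2g-202 keeps the base, which follows the first 17 codons, and its frame meets a stop after 33 codons. The stretch chr3:92374661-92374721 of both transcripts is shown for this difference, with the extra base in capitals.
Sprr2g-201: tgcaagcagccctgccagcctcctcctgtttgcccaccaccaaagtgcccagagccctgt
Sprr2g-202: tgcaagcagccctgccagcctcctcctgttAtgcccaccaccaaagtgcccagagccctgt
The counts and FPKM values are per gene and do not tell the transcripts apart. Whether the RNA counted here carries the extra base was therefore not analysed.

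Krt4 lies on the minus strand at chr15:101918535-101924735, and its transcript has 9 exons and 2133 nt. Lypd3 lies on the plus strand at chr7:24636550-24641118, and its transcript has 5 exons and 1649 nt. The noncoding gene Gm26550 (chr7:24631145-24637916) overlaps the start of Lypd3 on the other strand. Gm26550 had 1 count over the 6 sham libraries and 9 over the 6 I/R libraries. Whether the counting used strand is not stated by the labels, so reads in the overlap cannot be told apart.

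Of the 3 genes, Lypd3 has an entry in the RefSeq promoter table used here (GRCm38.p6). Its 250 bases upstream of the start, chr7:24636320-24636569, are shown with the GC box letters CCGCCC in capitals.
Lypd3 upstream: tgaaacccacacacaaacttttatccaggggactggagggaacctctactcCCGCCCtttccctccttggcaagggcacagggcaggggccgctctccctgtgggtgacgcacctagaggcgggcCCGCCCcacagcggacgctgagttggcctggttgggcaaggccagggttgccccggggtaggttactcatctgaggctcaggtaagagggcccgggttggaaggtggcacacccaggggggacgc
The stretch holds 65.2% G and C, against a median of 52.4% over the promoters of the table. The letters CCGCCC, searched on both strands, occur 2 times, with their first bases at -199 and -125 from the start, and 32.7% of the 32851 promoters hold them. No match was found in this window, on either strand, for the AP-1 letters TGANTCA (in 6.75% of promoters), the STAT letters TTCNNNGAA (7.02%), the TATA box TATAAA (12.4%) or the TEAD letters GGAATG (12.6%).

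Copies of a family can share reads. No stretch of 50 nt in the transcripts of the 3 genes occurs, in the same orientation, in a transcript of another gene. At 25 nt, 43 of the 626 windows of Sprr2g-201 (6.87%) occur elsewhere, most of them in Sprr2c-ps, and 46 of the 2109 windows of Krt4 (2.18%) do so, the largest number of them (21) in Krt2. None of the 1625 windows of Lypd3 is shared in that orientation. Matches to the opposite strand, where Gm26550 lies, were not searched. The labels do not state how reads of shared stretches were assigned.

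Total counts ranged from 4678827 to 5456261 per library, so 1 count equals 0.161 to 0.268 CPM (counts per 1000000 counts of the library, the total being scaled here by TMM factors). Intervals of counts below cover counting error only. Several libraries stood apart. In KO I/R 2 the count and FPKM columns did not match: 936 genes had an FPKM without a count and 533 the reverse, while no gene in the other 11 libraries had an FPKM without a count. The FPKM column of that library could be turned back into whole reads (100% of 3180 values tested lay within 0.02 reads of a whole number), and both versions are given where it matters. In KO sham 3 mitochondrial genes held 24.7% of counts, against 5.64% to 10.7% in the other libraries. KO sham 1 had 1427 counts of Havcr1, which encodes the tubular injury marker KIM-1, against 4 to 111 in the other sham libraries. Lrrk2 itself had 598, 1651 and 207 counts in the sham libraries labelled KO, against 2053, 1284 and 1839 in WT sham. It had 235 to 793 counts in the libraries labelled KO I/R, against 320 to 464 in WT I/R. The counts thus do not separate the genotypes, and KO is used as the label only.

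Sprr2g was near absent from sham kidney and abundant after I/R. WT sham 1 to 3 held 3, 2 and 0 counts, whereas WT I/R 1 to 3 held 835, 774 and 902. In the KO groups they were 0, 5 and 0 in sham and 640, 779 and 487 after I/R. Every I/R library was far above every sham library, in both genotypes.

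Scaled to library size, Sprr2g stood at 152, 142 and 157 CPM in WT I/R, a mean of 150 ± 7.98 (SD, n = 3), against 0.344 ± 0.320 in WT sham. In KO I/R it stood at 118, 187 and 89.9 CPM, a mean of 132 ± 50.1, against 0.322 ± 0.559 in KO sham. The 3 WT I/R libraries lay close together, with an SD of 5.31% of the mean, while those of KO I/R were spread on both sides of them with an SD of 38.0% of the mean. The KO I/R spread contains KO I/R 2, whose FPKM column gives 1315 reads of Sprr2g where its count column gives 779, so that this library is the highest of the 6 I/R libraries in both CPM and FPKM.

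The ratio of summed Sprr2g counts, scaled to library size, was 446 in WT (exact 95% Poisson interval 191 to 1374) and 384 in KO (164 to 1185). On the log2 scale of the fitted model the I/R difference was 8.69 ± 0.77 (SE) in WT and 8.53 ± 0.77 in KO. Both sizes rest on a few sham counts. Without KO sham 2, the one KO sham library with Sprr2g counts, the KO difference was at least 421-fold against a floor of 3 counts over the other 2 sham libraries, and the fitted value moved to 12.40.

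Krt4, the keratin of the stratified lining, had 0, 4 and 2 counts in the WT sham libraries, whereas WT I/R had 61, 119 and 141. In KO sham it had 1, 6 and 0 counts, and in KO I/R it had 119, 157 and 67. Again no I/R library overlapped a sham library. The levels were 11.1, 21.8 and 24.6 CPM in WT I/R (mean 19.1 ± 7.09, SD, n = 3) and 22.0, 37.8 and 12.4 CPM in KO I/R (mean 24.1 ± 12.8). The ranges of both I/R groups overlapped.

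In sham kidney Krt4 averaged 0.398 ± 0.401 CPM in WT and 0.441 ± 0.629 CPM in KO, close to the level of the 3-count floor, which is 0.484 to 0.805 CPM in a library. The ratio of summed counts was 47.5 in WT (exact 95% interval 21.6 to 130) and 49.4 in KO (23.7 to 124). The fitted log2 differences were 5.49 ± 0.88 and 5.63 ± 0.87. The KO value moved to 7.61 without KO sham 2, which holds 6 of the 7 KO sham counts. KO I/R 2 is the highest KO I/R library for Krt4 by its count column (157) but not by its FPKM column, which gives 101 reads and puts it between the other 2.

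Lypd3, the surface protein, had 0, 3 and 0 counts in the WT sham libraries, whereas WT I/R had 65, 85 and 47. It had 4, 7 and 0 counts in KO sham and 66, 35 and 38 in KO I/R. The I/R groups were apart from the sham groups, with WT I/R 2 the highest library and KO I/R 3 the lowest I/R library in CPM. Levels were 11.8, 15.5 and 8.19 CPM in WT I/R (mean 11.9 ± 3.68, SD, n = 3) and 12.2, 8.42 and 7.02 CPM in KO I/R (mean 9.22 ± 2.69). In sham they averaged 0.200 ± 0.347 CPM in WT and 0.667 ± 0.677 CPM in KO.

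The ratio of summed Lypd3 counts was 58.3 in WT (exact 95% interval 19.7 to 285) and 12.7 in KO (6.90 to 26.1). The fitted log2 differences were 5.71 ± 0.93 in WT and 3.66 ± 0.79 in KO. The WT value rests on the 3 counts of WT sham 2. Without that library WT sham held no Lypd3 count, the fitted value moved to 8.94, and the difference was at least 38.7-fold against 3 counts over the group. In KO I/R 2, the FPKM column gives 59 reads of Lypd3 where the count column gives 35.

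**Figure D1:**
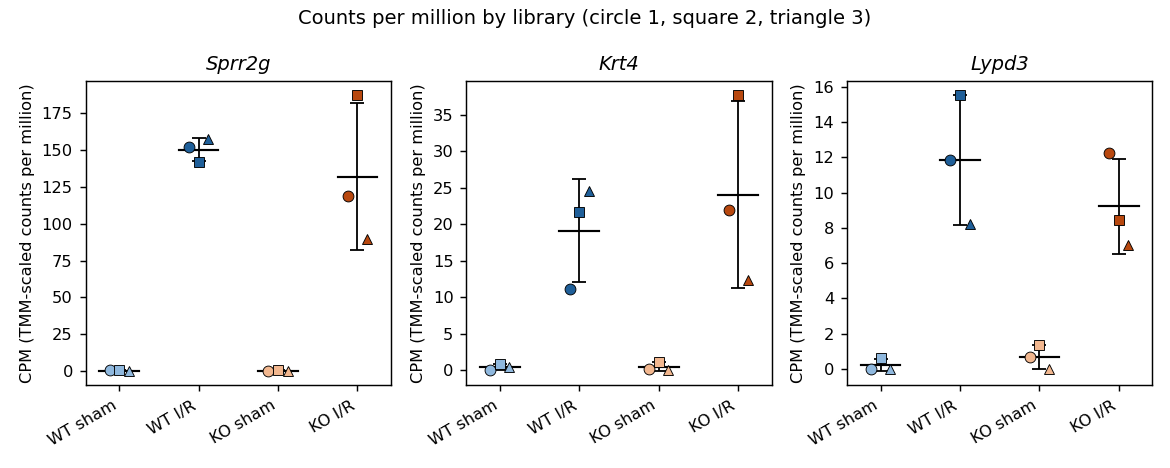
CPM (linear axis, one scale for each gene) of Sprr2g, Krt4 and Lypd3 in the 4 groups; symbols are libraries 1, 2 and 3 of a group, long bars the means and error bars the SD (n = 3). Sham libraries lie at or below 1.35 CPM for all 3 genes, while I/R libraries lie at 89.9 to 187 CPM for Sprr2g, 11.1 to 37.8 CPM for Krt4 and 7.02 to 15.5 CPM for Lypd3.

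Over all genes tested, 20.9% changed between WT I/R and WT sham (edgeR adjusted p under 0.05) and 23.5% between KO I/R and KO sham, and 11.9% had each of the 6 I/R libraries above each of the 6 sham libraries, and the 3 genes were among the last. The distance between the groups was wide: the lowest I/R library exceeded the highest sham library 93.0-fold for Sprr2g, 9.58-fold for Krt4 and 5.18-fold for Lypd3 in CPM. A gap of over 5-fold was present in 25 of the 5048 genes (0.495%). That cut lies just below the gap of Lypd3, so all 3 genes meet it, and the share is not a measure of how rare they are. These values belong to the contrast that chose the genes and are given as a description. In whole kidney RNA, more cells that express a gene and more RNA of it per cell cannot be told apart.

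Levels can be compared between genes in FPKM (fragments per length of transcript and depth of library). Sprr2g had 39.4 ± 2.16 FPKM (SD, n = 3) in WT I/R, Krt4 had 2.96 ± 1.08 and Lypd3 had 2.37 ± 0.733. In KO I/R the FPKM were 38.4 ± 19.6, 2.68 ± 0.713 and 1.97 ± 0.503. Within single I/R libraries Sprr2g was 9.11 to 23.2 times Krt4 and 11.9 to 29.2 times Lypd3. Krt4 and Lypd3 were of like level, with a ratio of 0.726 to 2.32 and a median of 1.34, and their order was not the same in every I/R library. Sprr2g was thus the most abundant of the 3 per length, and the WT and KO means of each gene differed by less than the larger SD. In sham no library exceeded 0.263 FPKM for any of them.

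Whether the genotype label went with a difference was tested, because the genes were not chosen on it. The interaction compares the I/R responses for which the genes were picked, so its test is not free of that choice. Over all 5048 genes, edgeR's quasi-likelihood test with Benjamini-Hochberg adjustment called 0.00% between KO I/R and WT I/R, 0.00% between KO sham and WT sham and 0.00% for the interaction. The unadjusted p was under 0.05 for 140, 285 and 265 genes, and DESeq2 called 2, 28 and 13.

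After I/R, the KO over WT log2 difference of Sprr2g was -0.19 ± 0.48 (SE), with a 95% interval of -1.24 to 0.86. That of Krt4 was 0.33 ± 0.63 (-1.05 to 1.70), and that of Lypd3 was -0.36 ± 0.64 (-1.76 to 1.04). The adjusted p of the edgeR test was 1 for each gene. The I/R groups overlapped for all 3 genes, while 9.43% of genes had I/R groups without overlap. The intervals reach beyond -1 for each gene and beyond 1 for Krt4 and Lypd3, so they do not show that the genotypes are alike. With the recovered reads of KO I/R 2, Sprr2g stood at 0.02 and Krt4 at -0.11, so the direction of both turned with the column used.

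Between the sham groups the log2 differences were -0.03 ± 1.14 for Sprr2g, 0.18 ± 1.11 for Krt4 and 1.69 ± 1.10 for Lypd3. None passed (edgeR adjusted p = 1, 0.9996 and 0.832), and with 0 to 7 counts a library a difference was not detectable at this depth. Of the interactions of genotype and I/R, that of Lypd3 was the largest of the 3 in size, at log2 -2.05 ± 1.27 (KO response minus WT response). It had a 95% interval of -4.81 to 0.71 and an edgeR adjusted p of 0.992, so it was not distinguishable from the spread. It ranged from -5.27 to -0.30 over the alternative settings, with adjusted p from 0.768 to 1. The interactions of Sprr2g (-0.16 ± 1.31) and Krt4 (0.14 ± 1.44) had an adjusted p of 0.9998.

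Injury markers differed between the sham libraries. KO sham 1 had 230 CPM of Havcr1 and 124 CPM of Lcn2, which encodes the secreted injury marker NGAL, while the other sham libraries had at most 21.8 CPM of each. That library held no count of Sprr2g, 1 of Krt4 and 4 of Lypd3, the last being the second highest of the 6 sham libraries (7 in KO sham 2, 3 in WT sham 2 and 0 in the other 3). The highest sham counts of all 3 genes were in KO sham 2 (5, 6 and 7), which had 3.29 CPM of Havcr1 and 6.58 CPM of Lcn2. For scale, the I/R libraries had 3091 to 8181 CPM of Havcr1.

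Few other genes of the cornified envelope could be read. Of 72 listed genes of the envelope and the epidermal differentiation complex, apart from Sprr2g, 14 were in the table and 4 passed the filter, and the others were not analysed here. The summed level of the listed genes was 12.4 to 24.4 CPM in sham and 40.1 to 87.8 CPM after I/R. Of the 4 tested, 1 rose in WT I/R and 2 in KO I/R, and none fell, in contrasts where 10.2% of all genes rose in WT and 11.9% in KO (20.9% and 23.5% changed in either direction). Their median log2 change was 1.09 in WT and 1.68 in KO, against -0.04 and -0.08 over all genes. These counts and medians include Aloxe3, which could pass the filter only through the I/R libraries, so they are a description. Dmkn had log2 -0.40 ± 1.27 in WT (edgeR adjusted p = 0.851) and 1.27 ± 1.15 in KO (adjusted p = 0.448). Aloxe3, an epidermal lipoxygenase of the lipid barrier, had 3, 3 and 1 counts in the WT sham libraries, whereas WT I/R had 63, 28 and 43. It had 1 to 5 counts in the 6 sham libraries and passed the filter through the I/R libraries alone, so its fitted log2 changes of 4.02 ± 0.54 in WT and 3.98 ± 0.51 in KO are a description, and it is the 1 call counted in WT. Tchhl1, a trichohyalin-like gene of the complex, was the other call in KO, at log2 2.10 ± 0.41 (edgeR adjusted p = 0.00460, and up to 0.0208 without 1 library). In WT it had 1.18 ± 0.40 (edgeR adjusted p = 0.0526), which passed without WT sham 2, KO sham 1, KO sham 3 or KO I/R 2 (at lowest 0.0266) and in 8 other settings, among them DESeq2 (0.0258).

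The 3 SPRR2 relatives of Sprr2g in the table had few counts, and the others were not analysed here. Sprr2d had 5, 0 and 4 counts in WT I/R, 5, 0 and 0 in KO I/R and none in sham. Sprr2i had 5, 0 and 0 counts in WT I/R and 0, 2 and 0 in KO I/R, and Sprr2j-ps had none in any library. Loricrin (Lor), a main protein of the envelope of skin, had log2 changes of 0.996 ± 0.487 (edgeR adjusted p = 0.164) in WT and 0.94 ± 0.47 (adjusted p = 0.172) in KO. Within 250 kb of Sprr2g, 11 other genes were in the table, 1 passed the filter and none was called in either genotype.

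Keratins of stratified epithelia other than Krt4 were looked up next. Of 18 listed, 6 were in the table, the others were not analysed here, and 2 passed the filter. Of these, Krt76 passed it through the I/R libraries alone, so it is described without a test. Krt76, a keratin of the palate and other oral lining whose gene lies 25615 bp from Krt4, had no count in any of the 6 sham libraries. It had 18, 23 and 18 counts in WT I/R and 9, 1 and 0 in KO I/R, at least 17.5-fold above the 3-count floor over the group in WT and at least 3.36-fold in KO. For KO I/R 2 the FPKM column gives 8 reads of Krt76 where the count column gives 1. Krt6a, a keratin of wounded skin, had 4 counts each in KO I/R 2 and 3 and none elsewhere. Krt15, a basal keratin, had log2 changes of -0.30 ± 0.65 (edgeR adjusted p = 0.767) in WT and -0.95 ± 0.65 (adjusted p = 0.309) in KO. The summed level of the listed keratins, without Krt4, did not rise in either genotype. It was 4.21 to 19.9 CPM in WT sham and 6.01 to 19.0 CPM in WT I/R, and 9.52 to 21.5 CPM in KO sham and 7.96 to 9.42 CPM in KO I/R. Most of it was Krt15, with a mean of 10.5 CPM in WT sham, 8.52 in WT I/R, 14.5 in KO sham and 7.53 in KO I/R.

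The keratins of simple epithelia in the table, 2 of 6 listed, both rose in both genotypes. Among all genes tested, 10.2% rose in WT and 11.9% in KO. Krt19, a keratin of ducts and injured tubules, had 7.37, 19.4 and 19.7 CPM in the WT sham libraries, whereas WT I/R had 267, 289 and 239 CPM. It rose by log2 4.09 ± 0.53 in WT (edgeR adjusted p = 0.000593) and 3.39 ± 0.52 in KO (adjusted p = 0.00141). Krt23 rose by 2.46 ± 0.47 in WT (edgeR adjusted p = 0.00416) and 1.63 ± 0.45 in KO (adjusted p = 0.0226), the KO call being lost without KO sham 2, KO I/R 1 or KO I/R 2 (adjusted p up to 0.0685), with the groups of the contrast alone (0.110) or without KO sham 1 and 3 (0.0538). Per length, Krt19 was the more abundant keratin after I/R: 38.0, 40.7 and 33.6 FPKM in WT I/R, against 1.73, 3.35 and 3.78 FPKM of Krt4.

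**Figure D2:**
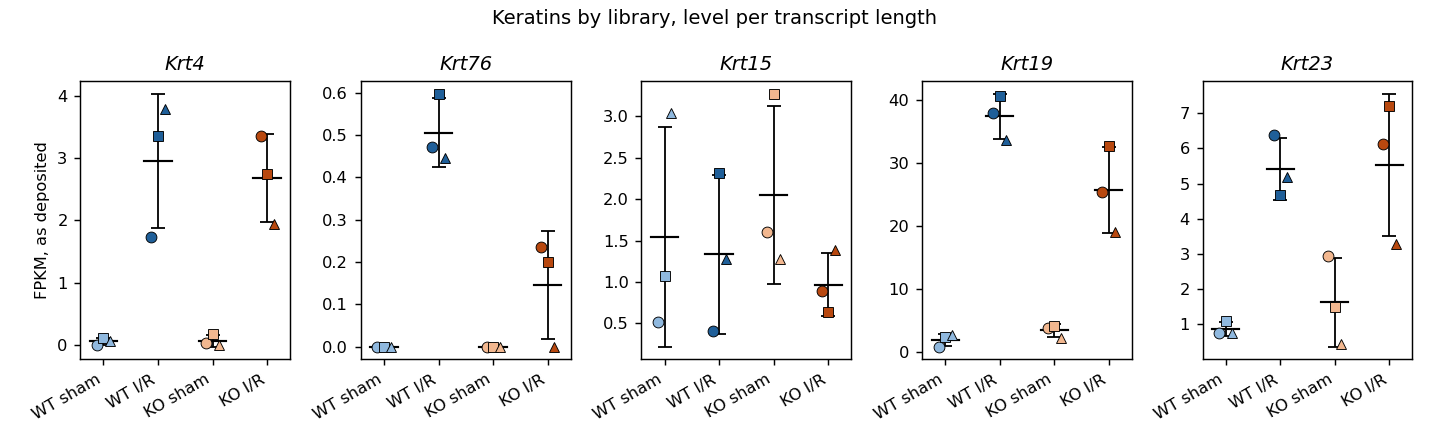
FPKM as deposited (linear axes, one scale for each gene) of Krt4, Krt76, Krt15, Krt19 and Krt23 in the 4 groups; circles, squares and triangles are libraries 1, 2 and 3, long bars means and error bars SD (n = 3). Krt4 and Krt76 lie at or near 0 in sham, Krt19 reaches 40.7 FPKM in WT I/R, and the groups of Krt15 overlap.

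Relatives and partners of Lypd3 were read from 2 lists. Of 40 listed genes of the Ly6 and urokinase receptor family, 11 were in the table and 4 passed the filter. Of these, 1 rose in WT and 2 in KO, where 10.2% of all genes rose in WT and 11.9% in KO. Over the alternatives 0 to 2 rose in each genotype. Gpihbp1, which carries lipoprotein lipase on capillaries, rose by log2 2.11 ± 0.51 in WT (edgeR adjusted p = 0.0134, and up to 0.0547 without WT sham 2 or WT sham 3) and 2.19 ± 0.51 in KO (adjusted p = 0.0104). The KO call of Gpihbp1 was lost without KO sham 1 and 3 (edgeR adjusted p = 0.144, or 0.107 with the recovered reads as well). Ly6a, the Sca-1 antigen, was the other KO call at 1.75 ± 0.55 (edgeR adjusted p = 0.0383). It was lost without any 1 of WT sham 2, WT I/R 1, KO sham 2, KO sham 3 and KO I/R 2 (edgeR adjusted p up to 0.185, where log2 was 0.97), with recovered reads (0.0715), with the groups of the contrast alone (0.112) and without KO sham 1 and 3 (0.193). The Ly6a call was also lost with a block for replicate number and on both FPKM scales. Ly6d, a marker of squamous epithelium, had 0.18 ± 0.61 in WT (edgeR adjusted p = 0.858) and 0.31 ± 0.57 in KO (adjusted p = 0.720). Cd59a had -0.50 ± 0.65 in WT (edgeR adjusted p = 0.610) and -0.40 ± 0.64 in KO (adjusted p = 0.682).

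The ligands and partners reported for Lypd3 include laminin 332 and the integrin of hemidesmosomes. Of 11 listed, 4 passed the filter, of which 2 rose and 1 fell in WT, and 1 rose and 1 fell in KO. Of all genes tested, 10.2% rose and 10.7% fell in WT, and 11.9% rose and 11.5% fell in KO. Lamb3, a chain of laminin 332, rose by log2 2.27 ± 0.57 in WT (edgeR adjusted p = 0.0162, up to 0.0573 without any 1 of the WT sham libraries) and had 1.28 ± 0.55 in KO (adjusted p = 0.116, and 0.0141 without KO sham 1). Itgb4, the beta chain of the hemidesmosome integrin, rose by 1.96 ± 0.44 in WT (edgeR adjusted p = 0.00889) and 1.36 ± 0.43 in KO (adjusted p = 0.0379). The KO call of Itgb4 was lost without any 1 of WT sham 2, WT I/R 2, KO sham 1, 2 or 3, KO I/R 1 or KO I/R 2 (edgeR adjusted p up to 0.157), with the groups of the contrast alone (0.0858) and without KO sham 1 and 3 (0.167). That call was also lost with voom, with a block for replicate number and on the log2(FPKM + 0.1) scale. Lama3, another chain of laminin 332, fell by 1.05 ± 0.32 in WT (edgeR adjusted p = 0.0394) and 1.55 ± 0.33 in KO (adjusted p = 0.00694). The WT call of Lama3 was lost with no filter (edgeR adjusted p = 0.0597), with voom (0.0544), on the FPKM scales (0.0558 and 0.0536) and without WT sham 1, any 1 WT I/R library, KO sham 2 or KO I/R 3 (adjusted p up to 0.192).

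Adhesion genes of squamous epithelium hold its cell layers together. Of 29 listed, 6 were in the table and 5 were tested, and 4 rose in each genotype, where 10.2% of all genes rose in WT and 11.9% in KO. Over the alternatives the number that rose was 1 to 4 in each genotype. Cldn7, a tight junction claudin, rose by log2 1.90 in WT and 1.73 in KO (edgeR adjusted p = 0.00525 and 0.00796). Cdh3, or P-cadherin, rose by 1.52 and 1.49 (adjusted p = 0.0245 and 0.0245), the plakophilin Pkp3 by 1.03 and 1.29 (adjusted p = 0.0223 and 0.00747) and plakoglobin, Jup, by 0.89 and 1.14 (adjusted p = 0.0287 and 0.00876). Unlike Sprr2g, Krt4 and Lypd3, these genes were already expressed in sham kidney. In WT sham Jup averaged 573 CPM, Pkp3 96.9, Cldn7 80.3 and Cdh3 25.8. The rest of the list was not tested, so the count says nothing about it. Cldn7 kept both calls without any 1 library. The WT calls were lost without WT sham 1 or 2 or WT I/R 1 or 3 for Cdh3 (edgeR adjusted p up to 0.0986), without WT sham 1 or 3 or WT I/R 1 or 2 for Pkp3 (up to 0.0769), and without any WT sham library or WT I/R 1 or 2 for Jup (up to 0.116). The KO call of Cdh3 was lost without KO sham 2, KO I/R 1 or KO I/R 3 (edgeR adjusted p up to 0.0798). The KO calls of Cdh3, Pkp3 and Jup were also lost with the groups of the contrast alone (edgeR adjusted p = 0.0879, 0.0690 and 0.0764) and without KO sham 1 and 3 (0.116, 0.0522 and 0.0520).

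Transcription factors of squamous and injured epithelium had 2 of 5 tested genes higher in each genotype, from 31 listed. The share of all genes that rose was 10.2% in WT and 11.9% in KO. Sox9, a factor of epithelial progenitors and regenerating tubule, rose by log2 4.79 in WT and 4.29 in KO (edgeR adjusted p = 9.55e-05 and 0.000129). Stat3, the mediator of IL-6 type signals, rose by 0.97 and 1.09 (edgeR adjusted p = 0.0490 and 0.0296). The WT call of Stat3 was lost without any 1 WT library, KO sham 2, KO I/R 1 or KO I/R 3 (edgeR adjusted p up to 0.147), and the KO call without KO sham 2 or 3 or KO I/R 1 or 3 (up to 0.0985) and with the groups of the contrast alone (0.139). Klf4, a factor of epidermal barrier formation, had 1.31 ± 0.46 (edgeR adjusted p = 0.0622) and 1.003 ± 0.456 (adjusted p = 0.131). Without KO I/R 2, Klf4 passed in both genotypes (edgeR adjusted p = 0.0101 in WT and 0.0160 in KO), as it did with the recovered reads of that library (0.00590 and 0.00389) and on the FPKM scales (0.0216 and 0.0107 with a pseudocount of 0.1), and in WT it also passed with DESeq2 (0.0235) and with the groups of the contrast alone (0.00145).

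The S100 genes, calcium-binding proteins many of which lie in the epidermal differentiation complex, had 2 tested members of 17 listed. S100a6 rose by log2 4.70 in WT and 3.66 in KO (edgeR adjusted p = 0.000294 and 0.00101). S100a13 rose by 1.61 in WT (edgeR adjusted p = 0.0454), lost without any 1 WT library, KO sham 1 or KO I/R 1 (adjusted p up to 0.154), and had 1.33 in KO (adjusted p = 0.0817, and at lowest 0.0265 without KO sham 3 or KO I/R 3).

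**Figure D3:**
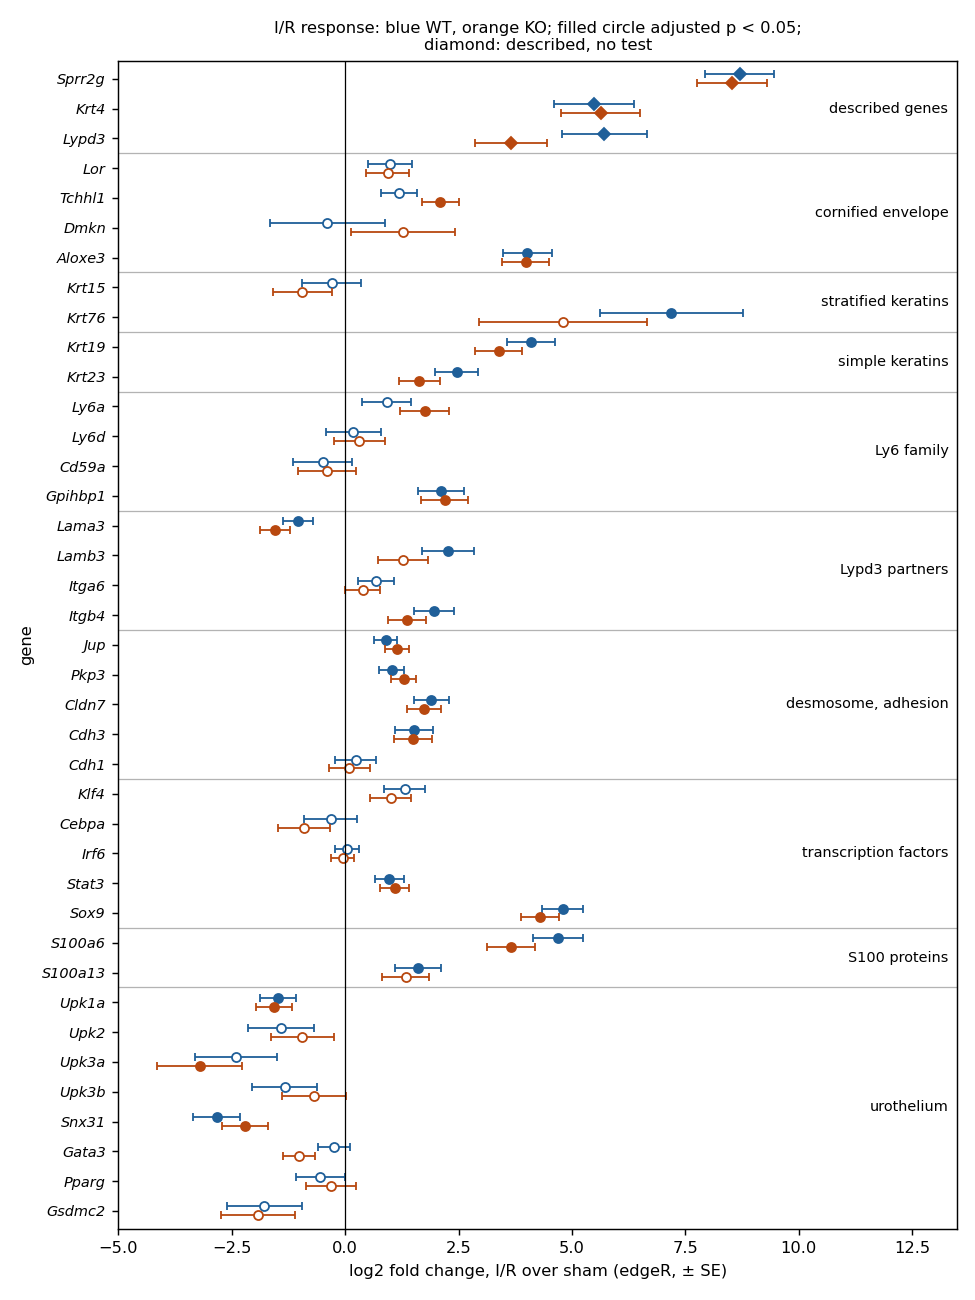
Fitted log2 fold change of I/R over sham (linear axis) in WT (blue) and KO (orange) for Sprr2g, Krt4 and Lypd3 (diamonds, described without a test) and for the tested genes of 9 lists (circles, filled where the edgeR adjusted p is under 0.05; Krt76 and Aloxe3 passed the filter through the I/R libraries alone); bars are SE. The described genes lie at 3.66 to 8.69, adhesion genes such as Cldn7 (1.90 in WT) lie lower, and the uroplakin Upk1a lies at -1.48 in WT.

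Urothelium, the lining of the renal pelvis, is a layered epithelium that a kidney piece could hold. All 8 of the listed urothelium genes in the table passed the filter, of 14 listed, and none rose in either genotype, while 2 fell in WT and 3 in KO, where 10.7% of all genes fell in WT and 11.5% in KO. The other 6 in WT and 5 in KO did not pass, and over the alternatives 1 to 4 fell in WT and 2 to 4 in KO. The summed level of these markers was 142 to 197 CPM in WT sham and 59.2 to 79.7 CPM in WT I/R. It was 175 to 232 CPM in KO sham and 63.9 to 100 CPM in KO I/R, so no I/R library reached the level of a sham library. KO I/R 2 had the highest urothelial sum and the highest CPM of Sprr2g and Krt4 among the I/R libraries. Lypd3 was instead highest in WT I/R 2, at 15.5 CPM against 8.42 CPM in KO I/R 2. By the FPKM column, Krt4 was highest in WT I/R 3, at 3.78 FPKM against 2.75 FPKM in KO I/R 2. KO sham 2 had the highest sum of the sham libraries and the highest sham counts of the 3 genes. The part of urothelial cells in the values was not tested.

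The tested urothelium genes, the uroplakins and others, were described next. Snx31, a sorting nexin of uroplakin turnover, fell by log2 2.83 in WT (edgeR adjusted p = 0.00327) and 2.21 in KO (adjusted p = 0.00983). Upk1a fell by 1.48 in WT (adjusted p = 0.0226 by edgeR) and 1.57 in KO (adjusted p = 0.0147), the WT call being lost without WT sham 2 or 3 or WT I/R 1 or 3 (up to 0.0956) and the KO call without KO sham 2 (0.0521). With the groups of the contrast alone the KO calls of Snx31 and Upk1a were lost (edgeR adjusted p = 0.0549 and 0.0538). Upk3a had -2.40 in WT (edgeR adjusted p = 0.0801, and 0.00700 without WT I/R 2) and fell by 3.21 in KO (adjusted p = 0.0272, up to 0.0898 without KO sham 2, KO I/R 1 or KO I/R 3, and 0.0829 without KO sham 1 and 3). Upk3a passed in WT with DESeq2 (adjusted p = 0.0232), voom (0.0188) and limma on the FPKM scales (0.0226 and 0.0207). The log2 changes of Upk2, Upk3b, Gata3, Pparg and Gsdmc2 ranged from -1.92 to -0.25 over both genotypes and did not pass. That of Upk2 in WT passed without WT I/R 2 (log2 -2.87, edgeR adjusted p = 0.0273), and that of Gata3 in KO passed without WT sham 1 or KO sham 2 (adjusted p at lowest 0.0348), with DESeq2 (0.0363) and with recovered reads (0.0388). Gsdmc2 in KO passed with the groups of the contrast alone (edgeR adjusted p = 0.0288) and on the log2(FPKM + 1) scale (limma adjusted p = 0.0405).

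**Figure D4:**
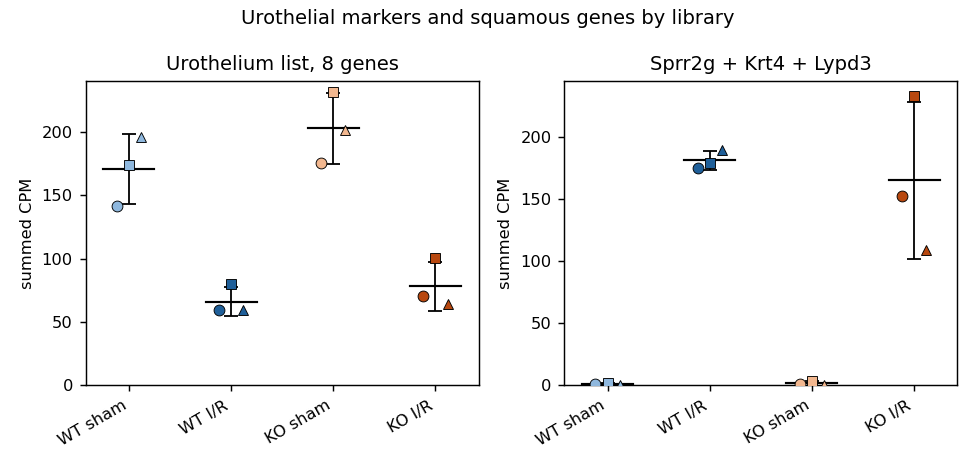
Summed CPM (linear axes from 0) of 8 urothelium markers (left) and of Sprr2g, Krt4 and Lypd3 (right) in the 4 groups; circles, squares and triangles are libraries 1, 2 and 3, long bars means and error bars SD (n = 3). The urothelial sum is 142 to 232 CPM in sham and 59.2 to 100 CPM after I/R, and the sum of the 3 squamous genes has the opposite order.

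Markers of other tissues with squamous or keratin genes were read in the same way. The skin and hair follicle markers summed to 1.61 to 3.404 CPM over all 12 libraries, with 1 gene tested and none called. The hair keratin genes Krt72 and Krtap3-1 were at 0 in every library, and Krt27 had 1 and 3 counts in 2 WT I/R libraries. Of the markers of oesophagus and forestomach, Crnn was at 0 in every library and 1 gene was tested, Fam25c. It rose by log2 3.28 in KO (edgeR adjusted p = 0.00563, up to 0.0255 without 1 library) and by 1.97 in WT (adjusted p = 0.0483), a WT call lost without 9 of the 12 single libraries (up to 0.162), with RLE factors (0.0535) and with voom (0.0658). The sum of that list was 6.89 to 24.7 CPM in sham, 37.1 to 80.1 CPM in 5 I/R libraries and 288 CPM in KO I/R 2. Fam25c made up nearly all of the mean sum, at 40.9 of 41.6 CPM in WT I/R and 136.2 of 136.4 CPM in KO I/R. In sham it was 10.41 of 10.958 CPM in WT and 14.1 of 14.4 CPM in KO. The rise of the sum is thus that of 1 gene and not of the list. In KO I/R 2 the count column gives 1196 counts of Fam25c and the FPKM column 281 reads, with which the sum was 67.6 CPM. The single mesothelium marker that rose was Krt19, which simple epithelia share. Neutrophil markers had summed levels of 1.47 to 8.32 CPM in sham and 21.1 to 45.9 CPM after I/R. Most of the mean sum was Csf3r, at 26.8 of 35.3 CPM in WT I/R and 23.1 of 30.7 CPM in KO I/R. Of the 3 tested, Mmp8 and Trem1 passed the filter through the I/R libraries alone (0 to 3 counts in sham) and are described without a test. Mmp8 averaged 0.0668 CPM in WT sham, 4.51 in WT I/R, 0.268 in KO sham and 4.63 in KO I/R. Trem1 averaged 0.0656, 3.90, 0.129 and 2.79 CPM in the same groups. Csf3r rose by log2 3.04 in WT and 2.35 in KO (edgeR adjusted p = 0.00821 and 0.0223), the KO call being lost without KO sham 1, KO sham 2 or KO I/R 2 (up to 0.0684) and with the groups of the contrast alone (0.0607). Markers of the injured tubule rose for 8 of 9 tested in each genotype (1 fell in KO), where 10.2% of all genes rose in WT and 11.9% in KO. Of these markers, Cldn14 passed the filter through the I/R libraries alone, and Sox9 is also counted among the transcription factors above. The list was chosen with earlier results of these data known, so its count is a description. The sum of the injured tubule markers was 675 to 1646 CPM in sham and 21945 to 48699 CPM after I/R. Proximal tubule markers fell for 8 of 9 tested in WT and 5 of 9 in KO, where 10.7% and 11.5% of all genes fell. The part of these cells in the values of Sprr2g, Krt4 and Lypd3 was not tested.

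The genes whose pattern was most like that of each gene were found by the root mean square (RMS) difference of log2 CPM over the 12 libraries, each gene centred on its own mean. For Sprr2g the nearest was Sult1e1, the estrogen sulfotransferase, at 0.92, followed by Lcn2 at 1.47, the lipid phosphodiesterase gene Smpdl3b at 1.48 and the fibrinogen chains Fgg at 1.52 and Fgb at 1.58. The median over all genes was 3.97. Sult1e1 was at 0 in all sham libraries and averaged 28.8 CPM in WT I/R and 64.8 CPM in KO I/R.

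For Krt4 the nearest of all genes was Lypd3, at an RMS difference of 0.79 log2 units against a median of 2.59. Next came Vtcn1, an immune checkpoint ligand, at 0.81, Smpdl3b at 0.81, the bile acid receptor gene Gpbar1 at 0.86 and Krt19 at 0.87. For Lypd3 the nearest were the metalloproteinase gene Mmp19 at 0.71, Krt19 at 0.72, Gsta1 at 0.73, Gpbar1 at 0.73 and the melanotransferrin gene Meltf at 0.73, with a median over all genes of 2.15. Sprr2g was farther from both, at 1.59 from Krt4 and 2.03 from Lypd3. The ranks were not mutual: among 5047 genes, Krt4 ranked 16 and Sprr2g 1932 from Lypd3, and Sprr2g ranked 113 from Krt4. From Sprr2g, Krt4 ranked 7 and Lypd3 13. The measure counts size as well as shape, the 12 libraries carry the I/R difference that chose the genes, and KO I/R 2 enters with its deposited counts.

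**Figure D5:**
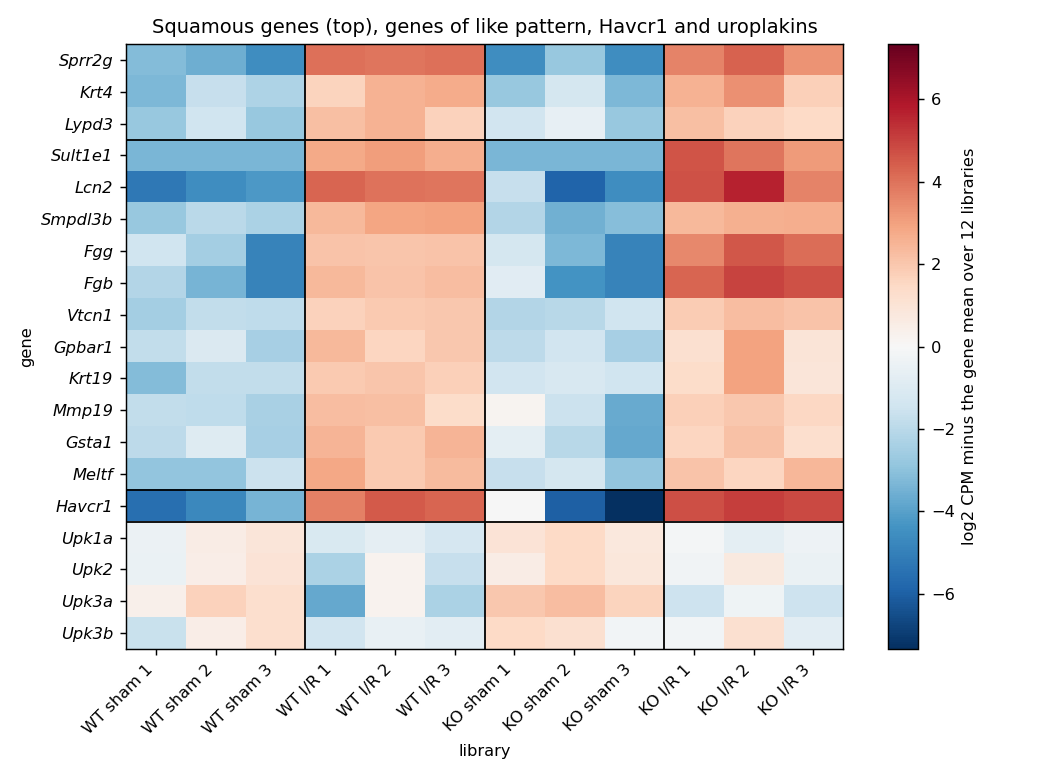
Log2 CPM minus the gene's mean over 12 libraries (color, red above and blue below) for Sprr2g, Krt4 and Lypd3, the genes of most like pattern, Havcr1 and 4 uroplakin genes (rows) in each library (columns, groups split by lines). Sprr2g and its like genes are blue in sham and red after I/R, Havcr1 is near its mean in KO sham 1 where Sprr2g is low, and the uroplakins are mostly above their mean in sham and below it after I/R.

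Genes near Krt4 and Lypd3 in the genome were read next. Within 250 kb of Krt4, 8 other genes were in the table and 2 passed the filter, Krt76, described above, and Spryd3. Spryd3 rose by log2 1.34 ± 0.28 in WT (edgeR adjusted p = 0.00588). It rose by 0.89 ± 0.27 in KO (edgeR adjusted p = 0.0348), a call lost without 7 of the 12 single libraries (up to 0.135), with no filter (0.0571), with the groups of the contrast alone (0.160) and without KO sham 1 and 3 (0.189). Within 250 kb of Lypd3, 8 other genes were in the table and 2 were tested, and none was called. Phldb3, 7253 bp from Lypd3, had log2 0.40 ± 0.31 in WT (edgeR adjusted p = 0.378) and 0.43 ± 0.31 in KO (adjusted p = 0.323).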

How the data were processed

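Per the file headers, the authors deposited read counts and FPKM values per gene side by side for 12 kidney libraries. RNA came from an RNeasy kit and libraries, read as pairs, from a TruSeq kit, per the labels' protocols. The submitters' processing notes name HISAT2 and StringTie; they give no versions, and the build and counting rules are not given in the sources used. Sprr2g, Krt4 and Lypd3, the gene lists and the tests were chosen with earlier results of these data known. The counts of 16383 genes were filtered (filterByExpr, minimum count 10), leaving 5048, and fitted in 1 model of 4 groups with edgeR 4.0.16 in R 4.3.3 (TMM, quasi-likelihood test, Benjamini-Hochberg over all tested genes, threshold 0.05), which was tested on simulated data. Log2 CPM for the likeness measure used a prior count of 2. Alternatives used DESeq2 1.42.0, limma 3.58.1 on counts (voom) and on log2(FPKM + 0.1) or log2(FPKM + 1), other factors and filters, left-out libraries and the reads recovered from the FPKM of KO I/R 2. No pair of libraries was a duplicate by a chi-square test of counts. Named genes were, by rule, up to 4 called members of each list in WT ordered by size, or the 2 of highest CPM, all urothelium genes, Havcr1, Lcn2 and the 5 genes nearest in pattern; other genes were named after their values were seen. Raw reads were not analysed here.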

Additional observations from a re-analysis of the deposited data

How the results depend on the processing

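The direction of the I/R difference of Sprr2g, Krt4 and Lypd3 was the same under all 25 alternatives, while its size depended on the few sham counts and on the pseudocount. On the log2(FPKM + 0.1) scale it was 7.88, 4.28 and 4.24 in WT for Sprr2g, Krt4 and Lypd3 and 4.17 for Krt4 in KO. On the log2(FPKM + 1) scale, which shrinks low levels, it was 5.23, 1.87 and 1.68 in WT and 5.08, 1.77 and 1.38 in KO. Leaving out 1 library gave 5.17 to 8.94 for Lypd3 in WT, 7.85 to 12.40 for Sprr2g in KO and 5.16 to 7.61 for Krt4 in KO. Without KO sham 1 and 3, Sprr2g stood at 7.07 in KO, and with recovered reads for KO I/R 2 as well, a setting chosen after seeing the data, Sprr2g stood at 7.28 and Krt4 at 3.93.

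The genotype differences were not called for any of the 3 genes under any alternative (lowest adjusted p 0.425), and their signs turned. Between shams Krt4 was -0.034 with voom, and Sprr2g was 1.45 without KO sham 1 and 3, with or without recovered reads. Between I/R groups, recovered reads gave 0.016 for Sprr2g and -0.11 for Krt4, the same with KO sham 1 and 3 left out gave 0.0095 and -0.11, and the FPKM scales gave -0.096 and -0.081 for Krt4. The interaction of Sprr2g was 0.29 with voom and 0.044 with recovered reads. That of Krt4 was -0.29 with recovered reads, -0.12 and -0.094 on the FPKM scales, -1.16 without KO sham 1 and 3 and -1.58 with both changes. Leaving out 1 library gave -3.90 to 0.67 for Sprr2g and -1.80 to 1.10 for Krt4 between shams, -0.53 to 0.020 and -0.16 to 0.64 between I/R groups, and -0.87 to 3.70 and -0.78 to 2.12 for the interaction. Gata3 in WT ranged from -0.52 to 0.012 without 1 library, the highest being without WT sham 3. The cause was not tested.

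Genes called in WT numbered 1057, or 1995 with the groups of the contrast alone, 2182 with recovered reads and without KO sham 1 and 3, and 527 to 1425 without 1 library. In KO they numbered 1185, or 364 with the groups of the contrast alone, 555 without KO sham 1 and 3, and 834 to 1367 without 1 library. Between shams 0 became 5 without a filter, 28 with DESeq2, 1 with voom, 7 and 4 on the FPKM scales, 1 without KO sham 1 and 3, 4 with recovered reads too, and 0 to 2 without 1 library. Between I/R groups it became 2 with DESeq2 and 0 to 1 without 1 library, and for the interaction 3 without a filter, 13 with DESeq2, 5 with recovered reads and without KO sham 1 and 3, and 0 to 2 without 1 library.

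Replicate numbers did not pair the libraries: the deviations of same-numbered libraries from their group means had r from -0.37 to 0.25 across genes. With the replicate block the I/R differences were 8.79, 5.66 and 5.82 in WT and 8.59, 5.77 and 3.89 in KO for Sprr2g, Krt4 and Lypd3, and the calls numbered 1031 in WT, 1134 in KO and 0 in the genotype contrasts and the interaction. The block lost the WT calls of Lama3 (edgeR adjusted p = 0.0617) and S100a13 (0.0564) and the KO calls of Itgb4 (0.0688) and Ly6a. With it Upk3a passed in WT (0.0307). In WT, calls were lost with no filter for Jup (0.0533) and Stat3 (0.0652), with RLE factors for S100a13 (0.0519) and on the FPKM scales for Upk1a (0.0546 and 0.0742), and in KO S100a13 passed with DESeq2 (0.0382) and on the FPKM scales (0.0481 and 0.0465).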
